A study of Mus musculus with 4 samples.

Results

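Sterol and fatty acid synthesis was described through 30 named genes, out of 23234 genes with values, in mouse erythroblasts. The genes cover the pathway from cytosolic acetyl-CoA to cholesterol, the enzymes that make, lengthen and desaturate fatty acids, and the regulators of both. They were chosen by gene name, and each of the 30 names has a row in the deposited table. That table lists the sterol C4 methyl oxidase Msmo1 under its older name Sc4mol. At least 1 FPKM (a read level per kilobase of transcript, corrected for library size) was reached in at least 1 library by 29 of the 30.

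The cells were extensively self-renewing erythroblasts (ESREs), immature red cell precursors from the early mouse fetus that can be expanded in culture. Proliferating cells with a short hairpin RNA against Setd8 (the knockdown) and control cells kept in maturation medium for 6 h (the maturing control) were each set against proliferating control cells. All control cells carried a non-targeting hairpin. A maturing knockdown group is also in the labels and was not analysed here. Setd8 is the enzyme that adds a single methyl group to lysine 20 of histone H4. Each group was 1 library, so no difference below has a replicate check. The calls and q-values (p-values adjusted over all genes the authors tested) are those of the authors' deposited table, and a gene was called at a q of at most 0.05. The labels do not say whether the hairpin cells were 1 clone or a pool.

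Setd8 itself stood at 9.28 FPKM in the knockdown, 25.9 FPKM in the maturing control and 25.1 FPKM in the proliferating control. Defining erythroblast genes were present in every library. Gata1 was at 61.1, 65.5 and 52.8 FPKM in the knockdown, the maturing control and the proliferating control. Of 12 listed erythroblast markers, 10, 12 and 11 reached 1 FPKM in these libraries, and Alas2, the first haem enzyme of red cells, was at only 0.0900 FPKM in the knockdown. The depth is unknown, because FPKM values do not give it. From the smallest values, the knockdown library was 1.43 times and the maturing control library 1.55 times as deep as the proliferating control library.

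Cholesterol and fatty acids share the precursor acetyl-CoA. Mevalonate and isoprenoid enzymes build farnesyl diphosphate, squalene enzymes close the sterol ring, and a further set of enzymes trims lanosterol to cholesterol. The genes are switched on together by SREBP transcription factors, which are held in the endoplasmic reticulum by the INSIG proteins when sterols are plentiful. Insig1 is itself a target of SREBP, which closes a feedback loop. Maturing red cells pass through their last divisions and then lose their nucleus and organelles.

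Genes along the whole sterol pathway had lower values in control cells after 6 h in maturation medium. Of the 29 measured genes, 27 had a lower value in the maturing control than in the proliferating control, and the median log2 ratio of FPKM + 1 was -0.91. The median of all 9611 measured genes was 0.01, and 47.3% of them had a lower value. The authors called 7 of the 29 lower, while 0.956% of tested genes at 1 FPKM or more were called lower. None of the 29 was called higher, against 0.372% of those genes. At an unadjusted p below 0.05, 14 of the 29 were lower and 0 were higher, against 2.4% of those genes lower. Levels at or below 50% of the proliferating control were found for 14 of the 29, and for 3.06% of all measured genes.

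In proliferating cells the Setd8 knockdown had a smaller and less uniform difference. Again 27 of the 29 had a lower value in the knockdown than in the control, at a median log2 ratio of -0.45. Over all measured genes the median was -0.05, and 55.6% had a lower value. A single gene of the 29, the isomerase gene Idi1, was called lower by the authors, and 1, the feedback gene Insig1, was called higher. Among tested genes at 1 FPKM or more, 2.15% were called lower and 3.89% higher, so these counts are near the background. At an unadjusted p below 0.05, 6 of the 29 were lower, against 3.93% of those genes. Both comparisons use the same proliferating control library, so their ratios are not independent.

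**Figure D1:**
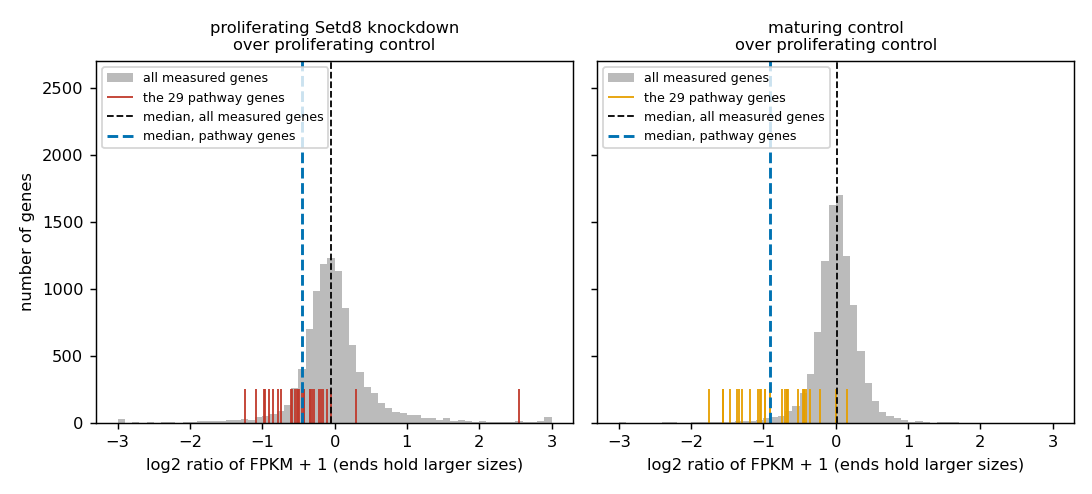
Histograms of the log2 ratio of FPKM + 1 over 9611 measured genes, with the 29 sterol and fatty acid genes as coloured lines and both medians dashed; left, Setd8 knockdown over proliferating control, right, maturing over proliferating control. The pathway median lies at -0.45 on the left and at -0.91 on the right, and a single line, Insig1, stands far to the right in the knockdown.

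The first enzymes of the pathway, up to farnesyl diphosphate, had a similar size of difference in both comparisons. All 6 measured genes had a lower value in each, at a median log2 ratio of -0.91 in the knockdown and -1.03 in the maturing control. The medians of the 3 fatty acid synthesis genes were also similar, but smaller in size, at -0.34 and -0.45. Idi1 (chromosome 13, 8884851 to 8891642, mm9) encodes the isomerase that makes the second isoprenoid building block. Idi1 stood at 41.5 FPKM in the knockdown, 38.7 FPKM in the maturing control and 99.2 FPKM in the proliferating control. It was thus at 41.9% and 39.0% of the proliferating control level. For the knockdown, Idi1 had a log2 ratio of -1.26 ± 0.38 (standard error of the authors' model) with q = 0.0161 in the authors' deposited table. Its maturation ratio there was -1.36 ± 0.38, with q = 0.00714. No other one of the 29 was called lower in both.

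Mvd, the decarboxylase that makes the first isoprenoid unit, maps to chromosome 8 (124957495 to 124967322). Its level was 5.67 FPKM in the knockdown, 4.47 FPKM in the maturing control and 13.1 FPKM in the proliferating control. Mvd was called lower in the maturing control in the authors' deposited table (log2 ratio -1.55 ± 0.50, q = 0.0297). The knockdown ratio of -1.21 ± 0.51 had a q of 0.181. The difference between the knockdown and the maturing control was not called for Mvd in the authors' deposited table (log2 ratio 0.34 ± 0.55, q close to 1).

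The kinases and the prenyl synthase around these steps were not called. Pmvk, which adds the second phosphate to mevalonate, stood at 8.97 FPKM in the knockdown, 8.80 FPKM in the maturing control and 18.4 FPKM in the proliferating control. Fdps, the farnesyl diphosphate synthase, was at 46.5, 39.7 and 85.0 FPKM in the same order. For both genes the knockdown and the maturing control lay close together and below the proliferating control. Mvk, the mevalonate kinase, was at 4.91 FPKM in the knockdown, 3.79 FPKM in the maturing control and 7.98 FPKM in the proliferating control. Acat2, the cytosolic thiolase that starts the pathway, was at 25.5, 27.0 and 44.7 FPKM. In the authors' deposited table the knockdown log2 ratios were -1.04 ± 0.49 for Pmvk (q = 0.293), -0.87 ± 0.41 for Fdps (q = 0.289), -0.70 ± 0.52 for Mvk (q = 0.834) and -0.81 ± 0.40 for Acat2 (q = 0.355). The maturation ratios there were -1.06 ± 0.49 for Pmvk (q = 0.276), -1.10 ± 0.41 for Fdps (q = 0.0947), -1.08 ± 0.53 for Mvk (q = 0.337) and -0.73 ± 0.40 for Acat2 (q = 0.484). Each of these ratios lay below 0 by more than its standard error, and none passed. Hmgcs1, the HMG-CoA synthase, was listed at 0 in all 3 libraries. Its row lies on an unplaced piece of chromosome 13, at 308619 to 326235, and since cells of this kind need the enzyme, the 0 may be a failed estimate.

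**Figure D2:**
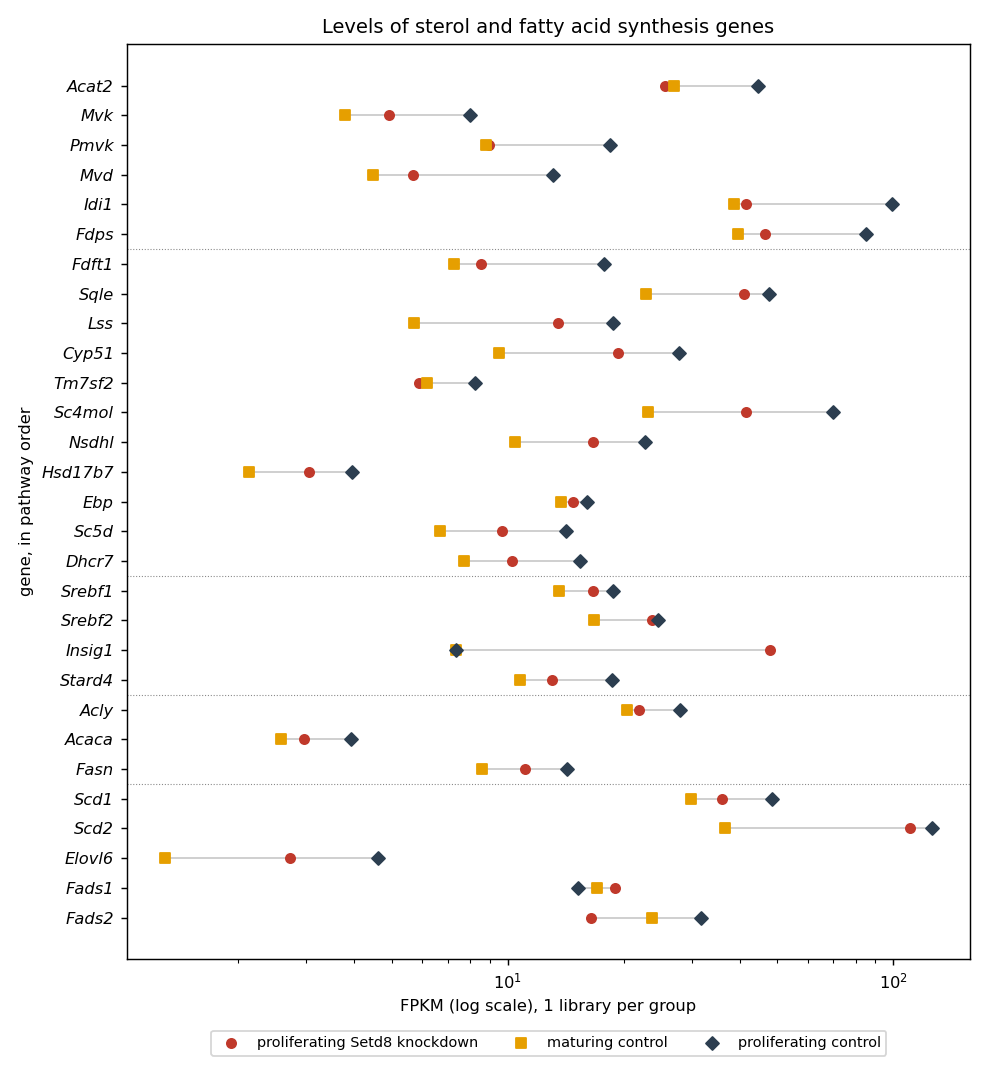
FPKM on a log axis for the 29 measured genes in pathway order, with 1 point per library: knockdown circles, maturing control squares, proliferating control diamonds. The diamond is the rightmost point for 27 genes, the exceptions being Insig1 and Fads1, and Insig1 in the knockdown stands at 47.9 FPKM against 7.34 FPKM in each control.

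Squalene and sterol ring enzymes had a lower value in all 11 cases in each comparison, but the sizes differed. Their median log2 ratio was -0.45 in the knockdown and -1.03 in the maturing control. None of the 11 was called in the knockdown, whereas 3 were called lower by the authors in the maturing control. Lss, the lanosterol synthase that closes the ring, maps to chromosome 10 (75994371 to 76024971). Lss stood at 13.5 FPKM in the knockdown, 5.72 FPKM in the maturing control and 18.8 FPKM in the proliferating control. Its maturation ratio in the authors' deposited table was -1.71 ± 0.45 (q = 0.00312) and its knockdown ratio -0.48 ± 0.43 (q = 0.983).

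Cyp51 (chromosome 5, 4080673 to 4104697), the lanosterol demethylase, was at 19.4 FPKM in the knockdown, 9.51 FPKM in the maturing control and 27.9 FPKM in the proliferating control. For maturation its q in the authors' deposited table was 0.00278, at a log2 ratio of -1.55 ± 0.41. Sc4mol (chromosome 8, 67196941 to 67212375), which oxidises the methyl groups at carbon C4, was at 41.5, 23.1 and 69.9 FPKM in the same order. Its maturation ratio in the authors' deposited table was -1.60 ± 0.41, with a q of 0.00208. For both genes the knockdown lay between the other libraries, at a ratio of -0.52 ± 0.39 (q = 0.843) for Cyp51 and -0.75 ± 0.40 (q = 0.430) for Sc4mol in the authors' deposited table.

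The rest of the ring enzymes were not called, and for most the maturing control was again lowest. Sqle, the epoxidase and a rate-limiting step, stood at 40.9 FPKM in the knockdown, 22.8 FPKM in the maturing control and 47.6 FPKM in the proliferating control. Sqle had a maturation ratio of -1.06 ± 0.40 (q = 0.0931) and a knockdown ratio of -0.22 ± 0.39 (q close to 1) in the authors' deposited table. Nsdhl, the C4 decarboxylating dehydrogenase, was at 16.7, 10.4 and 22.7 FPKM, with a maturation ratio of -1.12 ± 0.43 (q = 0.113) and a knockdown ratio of -0.44 ± 0.42 (q close to 1). The knockdown value of Sqle lay nearer to the proliferating control than to the maturing control.

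Sc5d, the sterol desaturase, was at 9.65 FPKM in the knockdown, 6.68 FPKM in the maturing control and 14.2 FPKM in the proliferating control. Dhcr7, the reductase of the last step of one branch, was at 10.3, 7.72 and 15.4 FPKM. The maturation ratio in the authors' deposited table was -1.09 ± 0.47 for Sc5d (q = 0.197) and -0.997 ± 0.44 for Dhcr7 (q = 0.226). The knockdown ratio was -0.56 ± 0.45 for Sc5d (q = 0.912) and -0.59 ± 0.43 for Dhcr7 (q = 0.825). Hsd17b7, the sterol keto reductase, was at 3.06, 2.13 and 3.94 FPKM. The smallest maturation differences of the ring enzymes were those of Ebp, the sterol isomerase, at 14.8, 13.7 and 16.0 FPKM, and of Tm7sf2, a sterol reductase, at 5.89, 6.19 and 8.21 FPKM.

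Fdft1, the squalene synthase, was at 8.55 FPKM in the knockdown, 7.24 FPKM in the maturing control and 17.8 FPKM in the proliferating control. It shares its deposited locus with the protease gene Ctsb, and its standard errors were the largest of the 29 genes. In the authors' deposited table Fdft1 had a knockdown ratio of -1.06 ± 0.75 (q = 0.785) and a maturation ratio of -1.30 ± 0.92 (q = 0.791). Lss, Tm7sf2, Srebf1, Srebf2 and Scd2 also share a locus with another gene, so fragments there may be split between genes.

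**Figure D3:**
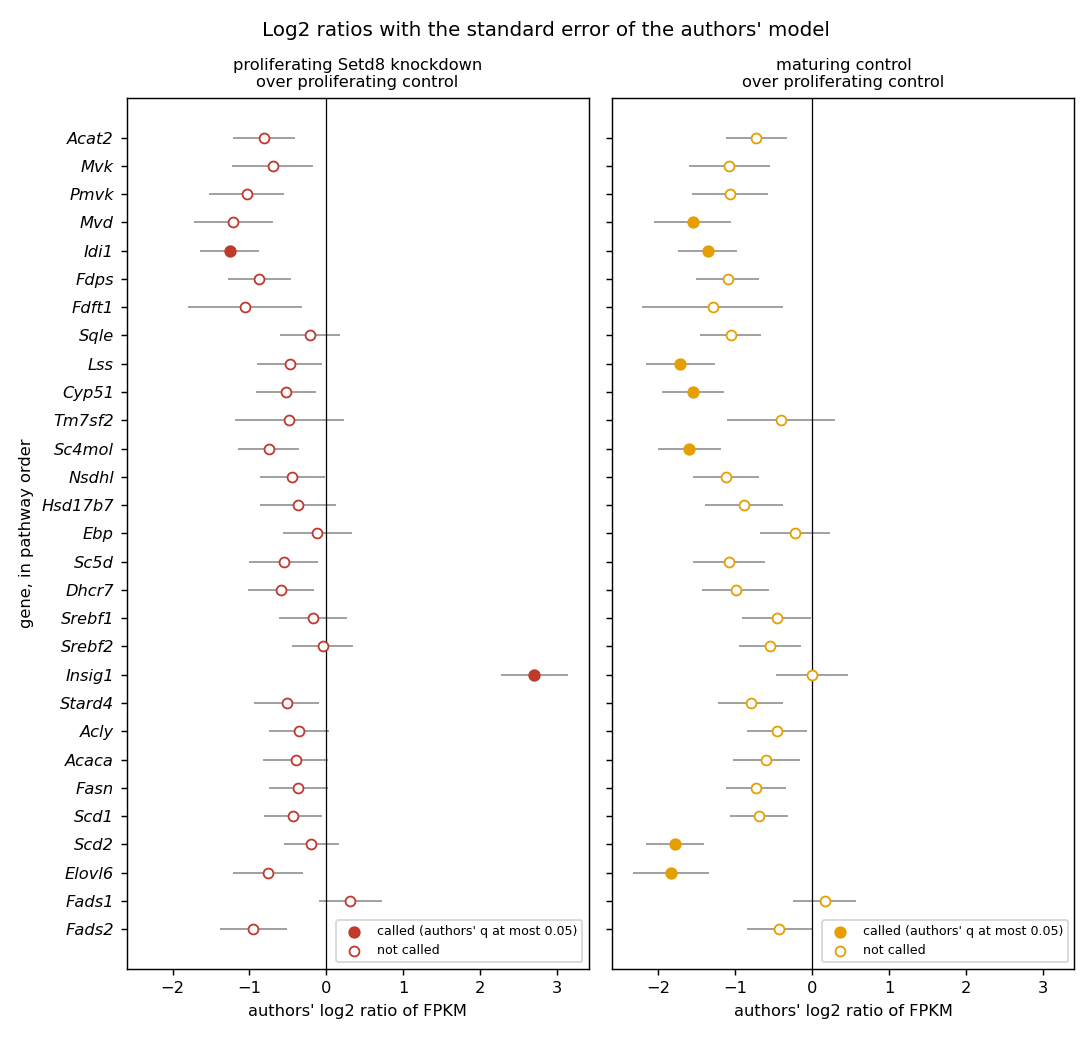
The authors' log2 ratio of FPKM per gene with the standard error of the authors' model as a bar, in pathway order; left, Setd8 knockdown over proliferating control, right, maturing over proliferating control, with filled points for called genes. On the left only Idi1 (-1.26) and Insig1 (2.71) are filled, and on the right 7 genes between Idi1 (-1.36) and Elovl6 (-1.84) are.

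Insig1 was the only one of the 29 genes called higher in the knockdown. Insig1 (chromosome 5, 28397951 to 28405202) encodes the membrane protein that holds back SREBP when sterols are plentiful. It stood at 47.9 FPKM in the knockdown, 7.34 FPKM in the maturing control and 7.34 FPKM in the proliferating control. The knockdown level was 6.52 times that of the proliferating control, and the controls differed by far less than the standard error of the model. In the authors' deposited table the knockdown ratio of Insig1 was 2.71 ± 0.43 with a q of 2.67e-08, and the maturation ratio was 0.00037 ± 0.47.

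The transcription factor genes showed no called difference. Srebf2, which encodes the main activator of sterol genes, was at 23.7 FPKM in the knockdown, 16.8 FPKM in the maturing control and 24.5 FPKM in the proliferating control. The sign of its knockdown difference turned with the scaling, with a log2 ratio of FPKM + 1 of -0.05 as deposited and 0.04 when centred on the median of genes at 5 FPKM or more in every library. Srebf1, whose protein acts more on fatty acid genes, was at 16.7, 13.6 and 18.7 FPKM. Stard4, a carrier that moves cholesterol between membranes, was at 13.1, 10.7 and 18.7 FPKM. In the authors' deposited table Stard4 had a maturation ratio of -0.80 ± 0.42 (q = 0.431) and a knockdown ratio of -0.52 ± 0.42 (q = 0.912). Srebf2 had a maturation ratio of -0.55 ± 0.40 (q = 0.811) and a knockdown ratio of -0.05 ± 0.40 (q close to 1).

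Fatty acid synthesis had smaller median differences than the sterol steps, which was not tested. Acly, which makes cytosolic acetyl-CoA from citrate, was at 21.9 FPKM in the knockdown, 20.4 FPKM in the maturing control and 28.0 FPKM in the proliferating control. Acaca, the carboxylase that commits carbon to fatty acids, was at 2.96, 2.59 and 3.91 FPKM. Fasn, the synthase, was at 11.1, 8.59 and 14.3 FPKM. All 3 had a lower value in the knockdown and in the maturing control, at median log2 ratios of -0.34 and -0.45, and the authors called none of them. Fasn had a maturation ratio of -0.73 ± 0.39 (q = 0.439) and a knockdown ratio of -0.36 ± 0.39 (q close to 1) in the authors' deposited table.

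Elongation and desaturation genes held the lowest maturation ratios on the authors' log2 scale. Scd2 (chromosome 19, 44368165 to 44381352), a desaturase that makes monounsaturated fatty acids, was at 110.4 FPKM in the knockdown, 36.7 FPKM in the maturing control and 126.3 FPKM in the proliferating control. It was the most abundant of the 29 genes in the proliferating control, and fell to 29.1% of that level in the maturing control. The authors' deposited table gave Scd2 a maturation ratio of -1.78 ± 0.37 with a q of 6.63e-05, and a knockdown ratio of -0.19 ± 0.36 with a q close to 1.

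Elovl6 (chromosome 3, 129235303 to 129341411), the elongase of palmitate, was at 2.72 FPKM in the knockdown, 1.29 FPKM in the maturing control and 4.61 FPKM in the proliferating control. Its maturation ratio of -1.84 ± 0.49 had a q of 0.00353 in the authors' deposited table, and its knockdown ratio was -0.76 ± 0.46 (q = 0.592). Scd1, a close copy of Scd2, was at 35.9, 29.96 and 48.4 FPKM and was not called. Its maturation ratio in the authors' deposited table was -0.69 ± 0.38 (q = 0.475) and its knockdown ratio -0.43 ± 0.38 (q = 0.968). Similar copies can share fragments, so the split between Scd1 and Scd2 is uncertain. The same holds for Scd3 and Scd4, which lie beside them.

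Polyunsaturated fatty acid desaturases followed another order. Fads2, the first desaturase of that path, was at 16.5 FPKM in the knockdown, 23.6 FPKM in the maturing control and 31.8 FPKM in the proliferating control. Fads1, which acts after it, was at 19.0, 17.1 and 15.3 FPKM. Fads1 was thus lowest in the proliferating control, and Fads2 lowest in the knockdown. Neither was called in the authors' deposited table, where Fads2 had a knockdown ratio of -0.95 ± 0.44 (q = 0.272) and a maturation ratio of -0.43 ± 0.43 (q close to 1).

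The deposited table also compares the knockdown with the maturing control directly, with rows for 24 of the 29 genes. It lists 19067 of the 23234 genes for this comparison. The measured genes without a row were Sqle, Srebf1, Srebf2, Stard4 and Tm7sf2, all late in the alphabet, so the deposited rows may be cut off. The shares given below for this comparison cover the listed genes only. These libraries differ in both the hairpin and the medium, so the effects of these cannot be told apart. A higher value in the knockdown was found for 22 of the 24, at a median log2 ratio of 0.30, and Acat2 and Fads2 were the exceptions. Over all measured genes in that comparison the median was -0.06, and 57.6% had a lower value in the knockdown. The authors' deposited table called Insig1 (log2 ratio 2.71 ± 0.43) and Scd2 (1.59 ± 0.38, q 0.000651) higher and 0 of the 24 lower. Of tested genes at 1 FPKM or more, 5.39% were called higher and 3.21% lower. Lss, at 1.24 ± 0.46 with a q of 0.0841, and Cyp51, at 1.03 ± 0.41 with a q of 0.133, did not pass.

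Promoters of called genes were examined by sequence. Those called in maturation were all lower there, and Insig1 was called higher in the knockdown. RefSeq promoter entries (GRCm38.p6) were found for 23 of the 30 genes, and the 250 bases before each start were searched on both strands. The motifs were the core of the sterol response element (TCACNCCAC), the box of NF-Y (CCAAT) and the box of Sp1 (GGGCGG), factors known as partners of SREBP. CCAAT was found in 18 of the 23, against 42.1% of promoters of measured genes and 37.5% of all promoters. GGGCGG was found in 19 of the 23, against 65.6% of promoters of measured genes and 35.4% of all. Both were found in 16 of the 23, against 27.9% of promoters of measured genes. TCACNCCAC was found in 1 of the 23, Hmgcs1, against 1.18%. No match says only that these letters are not in this window.

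The sequences below run 5′ to 3′ and end at the base before the start, with capitals for every match to these motifs on either strand. They cover the 7 genes with an entry among the 8 called in a comparison with the proliferating control, in pathway order, and were chosen after the matches were seen.
Mvd, chr8:122443423-122443672, minus strand: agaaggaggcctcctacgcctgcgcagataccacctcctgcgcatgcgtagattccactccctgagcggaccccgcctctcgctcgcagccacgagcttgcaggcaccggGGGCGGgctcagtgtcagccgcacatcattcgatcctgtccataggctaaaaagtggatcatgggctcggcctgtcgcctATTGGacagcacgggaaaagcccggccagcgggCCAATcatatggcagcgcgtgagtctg
Idi1, chr13:8885356-8885605, plus strand: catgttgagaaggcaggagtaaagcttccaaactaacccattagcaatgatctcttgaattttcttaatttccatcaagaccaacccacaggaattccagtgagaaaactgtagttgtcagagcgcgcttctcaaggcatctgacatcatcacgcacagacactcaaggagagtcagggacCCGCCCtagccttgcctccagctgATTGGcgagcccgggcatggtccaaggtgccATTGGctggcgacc
Lss, chr10:76531355-76531604, plus strand: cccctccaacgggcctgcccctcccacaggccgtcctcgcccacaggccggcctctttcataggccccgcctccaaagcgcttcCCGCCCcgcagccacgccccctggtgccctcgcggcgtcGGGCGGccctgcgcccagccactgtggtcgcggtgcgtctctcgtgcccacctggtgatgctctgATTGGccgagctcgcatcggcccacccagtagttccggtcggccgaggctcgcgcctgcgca
Cyp51, chr5:4104698-4104947, minus strand: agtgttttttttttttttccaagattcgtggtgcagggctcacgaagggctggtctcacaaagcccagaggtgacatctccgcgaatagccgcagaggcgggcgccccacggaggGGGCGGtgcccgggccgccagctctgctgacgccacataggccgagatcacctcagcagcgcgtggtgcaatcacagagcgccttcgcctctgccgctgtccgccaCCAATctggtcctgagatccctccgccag
Sc4mol, chr8:64733579-64733828, minus strand: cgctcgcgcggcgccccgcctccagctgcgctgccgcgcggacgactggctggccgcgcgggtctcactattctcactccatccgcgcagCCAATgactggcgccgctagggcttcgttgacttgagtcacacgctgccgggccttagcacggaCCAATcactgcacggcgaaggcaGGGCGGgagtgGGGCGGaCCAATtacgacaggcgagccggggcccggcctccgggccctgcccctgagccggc
Insig1, chr5:28071162-28071411, plus strand: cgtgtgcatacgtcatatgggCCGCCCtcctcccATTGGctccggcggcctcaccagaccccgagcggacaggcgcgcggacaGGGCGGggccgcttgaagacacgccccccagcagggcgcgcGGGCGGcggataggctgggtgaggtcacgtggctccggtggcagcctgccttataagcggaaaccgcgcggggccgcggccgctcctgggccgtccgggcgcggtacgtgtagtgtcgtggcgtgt
Elovl6, chr3:129532136-129532385, plus strand: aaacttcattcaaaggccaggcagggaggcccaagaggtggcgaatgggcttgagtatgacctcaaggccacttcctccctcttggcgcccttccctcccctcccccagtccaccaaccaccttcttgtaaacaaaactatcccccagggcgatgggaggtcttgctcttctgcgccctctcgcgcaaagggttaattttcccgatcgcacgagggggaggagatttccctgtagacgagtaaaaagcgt

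A CCAAT match was found in 6 of these 7 promoters and none in that of Elovl6. In Mvd, Idi1, Lss and Cyp51 every match began within 62 bases of the start. Sc4mol held 3 matches, beginning 160, 96 and 55 bases before its start. Insig1, called higher in the knockdown and not called in maturation, held 1 match, beginning 216 bases before the start, and 3 GGGCGG matches. These matches are a description of sequence and no test of binding. Match positions were not collected for uncalled genes or other promoters, so the positions cannot be set against the calls.

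Genes that surround the pathway were described from 5 further lists with 74 entries, of which 56 were measured. Their median log2 ratio was -0.00023 in the knockdown and -0.10 in the maturing control, and 28 and 34 of the 56 had a lower value, against 55.6% and 47.3% of all measured genes. Of the 56, the authors called 3 lower and 1 higher in the knockdown, and 4 lower and 0 higher in the maturing control. For 2 of the 56 the authors' test failed in both comparisons, so these could not be called. Over tested genes at 1 FPKM or more, the shares called lower and higher were 2.15% and 3.89% for the knockdown, and 0.956% and 0.372% for maturation. The 10 genes that control SREBP, among them Scap, the gene of its escort, and Insig2, the paralog of Insig1, held 0 calls in either comparison. Scap was at 6.75 FPKM in the knockdown, 5.67 FPKM in the maturing control and 5.77 FPKM in the proliferating control. Insig2 was at 1.91, 2.47 and 2.32 FPKM.

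**Figure D4:**
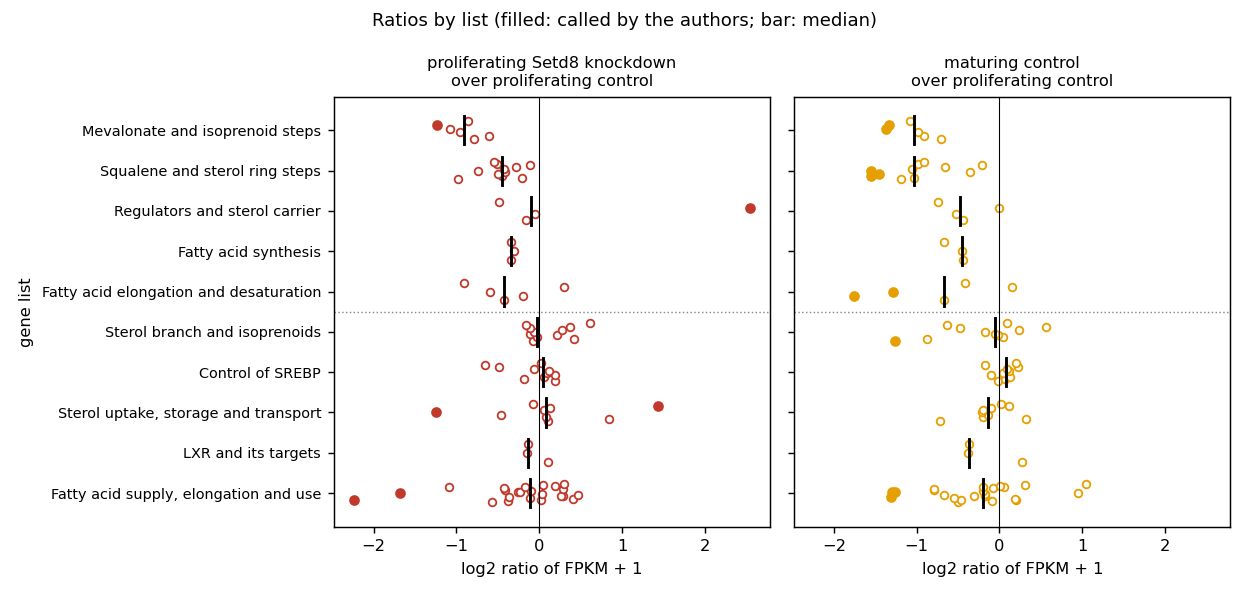
Log2 ratio of FPKM + 1 for each measured gene, by list, with the list's median as a bar and filled points for genes called by the authors; the 5 upper lists are the 29 pathway genes and the 5 lower lists the surrounding genes. The mevalonate list has medians of -0.91 (left, knockdown) and -1.03 (right, maturing control), while the medians of the lists on SREBP control are 0.04 and 0.08.

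Sterol storage and transport held a pair of opposite calls in the knockdown. Soat1, which esterifies cholesterol for storage, fell to 0.980 FPKM in the knockdown, against 3.06 FPKM in the maturing control and 3.71 FPKM in the proliferating control. Stard5, a sterol-binding protein, rose to 2.86 FPKM in the knockdown, against 0.553 FPKM in the maturing control and 0.429 FPKM in the proliferating control. The ratio of Soat1 in the authors' deposited table was -1.92 ± 0.52 (q = 0.00470), and that of Stard5 was 2.74 ± 0.54 (q = 1.61e-05). In maturation 0 of the 9 measured genes of this list were called. Among tested genes at 1 FPKM or more, 0.956% were called lower and 0.372% higher, so 0 is near the background. The authors' test failed for 1 of the 9 in both comparisons, so that gene could not be called.

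Among the 23 measured genes of fatty acid supply, elongation and use, 2 were called lower in the knockdown, against 2.15% of tested genes at 1 FPKM or more. Me1, the malic enzyme that makes NADPH for fatty acid synthesis, was at 0.0365 FPKM in the knockdown, 2.55 FPKM in the maturing control and 3.90 FPKM in the proliferating control. In the authors' deposited table its knockdown ratio was -6.74 ± 0.63, with a q listed as 0. Fads3, a neighbour of Fads1 and Fads2 in the same gene cluster, was at 0.514, 8.42 and 3.88 FPKM, and was called lower in the knockdown (q 1.06e-06). Its maturation difference had the opposite sign and was not called (q 0.182). Below 1 FPKM, Fads6, with 0 listed for the knockdown and 0.716 FPKM for the proliferating control, was called lower, and the dehydratase gene Ptplad2 was called higher at 0.183 against 0.00642 FPKM.

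The maturing control, in turn, held calls on a further gene of elongation and on further desaturase copies. Hsd17b12, the keto reductase of fatty acid elongation, was at 17.9 FPKM in the knockdown, 8.82 FPKM in the maturing control and 23.3 FPKM in the proliferating control. The authors' deposited table called it lower in the maturing control, at a q of 0.0302. Scd3 and Scd4 were at 12.2 and 10.2 FPKM in the maturing control, against 30.7 and 26.5 FPKM in the proliferating control, and were also called lower. As they are similar copies beside Scd2, which was called too, these calls may rest on shared fragments.

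Mast cell and megakaryocyte markers had higher sums in the knockdown. The summed level of 10 mast cell markers was 501 FPKM in the knockdown, 38.1 FPKM in the maturing control and 71.0 FPKM in the proliferating control, with 9, 4 and 5 of them at 1 FPKM or more and 0 listed at 0. The sum over 6 megakaryocyte markers was 59.0, 13.9 and 34.1 FPKM, with Pf4 listed at 0 in the proliferating control. Erythroblast markers summed to 961, 3091 and 1998 FPKM, with globins as the largest part. Without the globins the other 10 markers summed to 416 FPKM in the knockdown, 381 FPKM in the maturing control and 358 FPKM in the proliferating control, and in the knockdown 4 of them were higher and 6 lower than in the proliferating control. Kit and Rhag had the largest values of these markers in the knockdown, so that sum rests much on them. Kit was at 120.1 FPKM in the knockdown, 25.5 FPKM in the maturing control and 58.0 FPKM in the proliferating control. Rhag was at 119.3, 56.2 and 77.9 FPKM in the same order, while Klf1 was at 34.1, 84.9 and 60.1 FPKM. The 6 adipocyte and hepatocyte markers, from cells that make much fat and cholesterol, summed to at most 0.0373 FPKM in any library, and Alb was listed at 0 in all 3. Monocyte and granulocyte markers summed to 1.38, 1.48 and 1.18 FPKM, and lymphocyte markers to at most 0.0349 FPKM. The part of the mast cell, megakaryocyte and erythroblast markers in the Insig1, Soat1, Stard5 and Me1 differences was not tested. In bulk RNA, fewer cells of a type and less RNA per cell cannot be told apart.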

How the data were processed

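RNA sequencing values of 3 of 4 labelled samples were used, 1 per group. The authors deposited 1 table of 65535 rows in the layout of Cuffdiff, per the file headers. Its values per library are FPKM from the authors, since the submitters' processing notes name Cuffdiff and Cufflinks 2.0.2, with FastQC 0.10.1 and the mm9 genome. Nothing read here names an aligner, a gene annotation or a strand setting. The deposited p-value and q-value columns, the log2 ratio and the test statistic are other values of the authors. The column for the knockdown library was matched to its sample by target and title number.

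A standard error for each gene was taken as the log2 ratio over the statistic, and reflects the authors' model without replicates. The deposited p-value matched the normal tail of the statistic within 2.77e-06. Sizes are log2 ratios of FPKM + 1, and understate low genes. No test was run on the values. A gene was measured at 1 FPKM in at least 1 library. Full statistics were due to called genes, and to those at 5 FPKM with a size of 0.5. Members and lists were chosen with earlier results of these data known. Some surrounding genes that the rule takes, 1 of them called lower in maturation, are not reported here by name and stay in the counts. The rule for promoters asked for a TCACNCCAC match among genes with full statistics and took none, so those shown were chosen afterwards. The comparison of the knockdown with the maturing control was added after the data were seen. Medians were checked on simulated shifts. Alternatives were other q-values, filters, pseudocounts, means and scalings. Python 3.11.15, numpy 2.4.6, pandas 2.3.3, scipy 1.17.1 and matplotlib 3.10.9 were used.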

Additional observations from a re-analysis of the deposited data

How the results depend on the processing

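The medians of the 29 genes kept their sign under every alternative run: they ranged from -0.47 to -0.36 in the knockdown and from -0.99 to -0.61 in the maturing control. The 7 calls of maturation became 6 with a q-value under 0.01 and 6 over genes at 5 FPKM or more. With a q-value under 0.01, the knockdown had 1 call in place of 2, since Idi1 passes only at 0.05 while Insig1 passes at both. In the comparison of the knockdown with the maturing control, which was added after the data were seen, the median was 0.19 with a pseudocount of 5 FPKM and 0.47 with the mean. With no replicate spread, a median was taken as unchanged within 1.5 times its value. The 378 values of single genes under other pseudocounts and scalings moved by less than 1.96 standard errors of the authors' model. That limit is wide, since the median standard error of the 29 genes was 0.43 in the knockdown comparison. The largest scaling shift was 0.093 in log2, so this check could hardly fail and says little. The turned sign of Srebf2 also counted as no move. No paired analysis was possible because each group had 1 library. With 1 library per group and an unknown depth, no counting interval was computed.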

Other observations

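Some surrounding genes differed without a call. Cpt1a, which brings fatty acids into mitochondria to be oxidised, was at 11.6 FPKM in the knockdown, 20.1 FPKM in the maturing control and 9.22 FPKM in the proliferating control. Its maturation q in the authors' deposited table was 0.0722. Lpin1, a phosphatase of triglyceride synthesis, was at 2.08, 4.67 and 5.52 FPKM, with a knockdown q of 0.0551 in the authors' deposited table. Ube2g2, a ubiquitin-conjugating enzyme of the endoplasmic reticulum, was at 7.28, 10.6 and 12.0 FPKM, with no call in either comparison.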
